A study of Mus musculus with 4 samples.

Results

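Chromatin accessibility at 10 genes that move calcium ions across the endoplasmic or sarcoplasmic reticulum was examined in inguinal white adipose tissue (iWAT) of mice during beiging. The genes are the pumps *Atp2a1*, *Atp2a2* and *Atp2a3*, the release channels *Ryr2*, *Ryr3*, *Itpr1*, *Itpr2* and *Itpr3*, and the pump inhibitors *Pln* and *Sln*. They were taken by name. Peaks touching a gene's body, or the 2000 bases before its start, were assigned to it, and in this way 9 of the 10 genes received 210 of the 189598 peaks of the series. *Sln* had no peak. Across the genome, 17196 of 21951 protein-coding genes had a peak.

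The samples were iWAT of male C57BL/6J mice aged 8 weeks, with 3 mice in each of 7 groups and 21 mice in all, and no group carried a genetic change. Mice at day 0 were kept at 22 °C (day0RT), mice of the cold groups were kept at 6.5 °C for 1, 3 or 7 days (day1C, day3C, day7C), and mice of the CL groups received CL-316,243, a selective agonist of the β3-adrenergic receptor, at 1 mg/kg for 1, 3 or 7 days (day1CL, day3CL, day7CL). Single-nucleus ATAC-seq, in which the Tn5 transposase inserts adapters into open DNA, gave 32552 nuclei in 12 clusters annotated by the authors. The 4 sequencing lanes each pool mice, so the mouse, the group and the cluster of each nucleus were read from the deposited annotation.

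SERCA pumps, encoded by the *Atp2a* genes, use ATP to bring calcium from the cytosol into the reticulum. Ryanodine receptors (*Ryr*) and inositol trisphosphate receptors (*Itpr*) let it out again, and the small membrane proteins phospholamban (*Pln*) and sarcolipin (*Sln*) restrain the pumps. In beige fat, a cycle of release through these channels and uptake by SERCA2b, a product of *Atp2a2*, is known as a source of heat that does not need the uncoupling protein UCP1. *Atp2a1* is the pump of fast skeletal muscle, *Atp2a2* is expressed in most tissues, and *Atp2a3* is known from blood cells and other non-muscle cells.

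The entries of the deposited matrix are 0 or 1, and the sum of a gene's peaks over the nuclei of 1 mouse and 1 cluster is called its counts. Levels are given in CPM, the gene's counts per 1000000 counts in the total over all protein-coding genes of that mouse and cluster, and a mouse entered a cluster only with at least 10 nuclei in it. White adipocytes held 5935 nuclei and beige adipocytes 1069. White and beige nuclei together came to between 29 and 933 per mouse, with 48868 to 3354348 counts, and day1CL replicate 1 (29 nuclei) and day1CL replicate 2 (68 nuclei in all, 5 of them beige) were the shallowest. Of 28031 distinct barcode sequences, 4218 occurred in more than 1 mouse. Most clusters led in the marker genes of their own name. In the cluster annotated as VSMC (vascular smooth muscle cell), however, 18 skeletal muscle genes with a peak summed to 3593 ± 383 CPM (SD, n = 10 mice), against 600.7 in the next cluster. Smooth muscle and mural genes summed to 1130 ± 298 CPM there and to 1484 ± 143 CPM in APC2, so the data go against that label and the cluster is named below only as annotated.

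The loci differ widely in size and in number of peaks (mm10, GENCODE annotation). *Itpr1* (chr6:108213096-108551109, plus strand) carried 88 peaks, of which 81 were intronic, 6 exonic and 1 at the promoter. *Itpr2* (chr6:146108299-146502223, minus strand) carried 64, *Ryr2* (chr13:11553102-12106945, minus strand) 18, *Atp2a2* (chr5:122453513-122502225, minus strand) 11 and *Itpr3* (chr17:27057304-27122223, plus strand) 11. *Ryr3* (chr2:112631355-113217096, minus strand) carried 7 and none at its promoter, *Atp2a3* (chr11:72961169-72993044, plus strand) 6 and *Atp2a1* (chr7:126445858-126463108, minus strand) 4, of which 1 also lies at *Rabep2*. *Pln* (chr10:53337667-53345987, plus strand) carried a single intronic peak that is also part of *Cep85l*, and *Sln* lies at chr9:53850164-53854560. The promoter, within 2000 bases of the start, held 59.5% of all counts of *Atp2a2* and 67.7% of those of *Itpr3*, but 14.8% of those of *Itpr1*, 13.7% of those of *Itpr2* and 9.75% of those of *Ryr2*. Most of the signal at the large channel genes was thus intronic.

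Of the intronic elements that passed the threshold, between beige and white or between treated and day0RT adipocytes, 8 are printed here. Those more open in beige went the same way as their genes, and Itpr1_331344 and Itpr2_187981 went against the estimates of theirs. They were chosen after their values were seen and are not all of those called. Each is the central 300 bases of a peak, read on the plus strand of GRCm38.p6, and is named by its gene and the distance in bases from the gene start. Capitals mark matches to a searched motif: the nuclear receptor motif AGGTCA or its reverse complement TGACCT, the AP-1 motif TGANTCA, and the EBF core CCCNNGGG. The elements more open in beige adipocytes were Ryr2_34905 at chr13:12071890-12072189, Atp2a2_26942 at chr5:122475133-122475432, Itpr1_21640 at chr6:108234586-108234885, Itpr1_321602 at chr6:108534548-108534847, Itpr2_28730 at chr6:146473343-146473642 and Itpr2_32094 at chr6:146469979-146470278. Itpr1_331344 at chr6:108544290-108544589 was less open in beige, and Itpr2_187981 at chr6:146314092-146314391 was less open in treated adipocytes.
Ryr2_34905: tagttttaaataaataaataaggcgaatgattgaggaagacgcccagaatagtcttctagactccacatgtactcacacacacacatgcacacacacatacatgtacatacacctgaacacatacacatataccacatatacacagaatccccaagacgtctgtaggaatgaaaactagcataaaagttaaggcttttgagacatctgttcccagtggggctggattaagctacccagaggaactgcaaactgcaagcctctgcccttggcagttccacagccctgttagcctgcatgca
Atp2a2_26942: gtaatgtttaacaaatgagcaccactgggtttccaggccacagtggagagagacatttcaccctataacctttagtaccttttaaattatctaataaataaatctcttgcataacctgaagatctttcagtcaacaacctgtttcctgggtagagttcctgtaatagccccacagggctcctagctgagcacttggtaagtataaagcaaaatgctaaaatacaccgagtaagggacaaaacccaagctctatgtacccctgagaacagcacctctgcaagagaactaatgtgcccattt
Itpr1_21640: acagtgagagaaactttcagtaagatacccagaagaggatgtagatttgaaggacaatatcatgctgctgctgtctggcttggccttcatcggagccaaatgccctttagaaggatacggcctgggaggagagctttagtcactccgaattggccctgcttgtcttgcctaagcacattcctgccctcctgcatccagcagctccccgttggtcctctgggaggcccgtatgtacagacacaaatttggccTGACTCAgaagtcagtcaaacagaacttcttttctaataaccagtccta
Itpr1_321602: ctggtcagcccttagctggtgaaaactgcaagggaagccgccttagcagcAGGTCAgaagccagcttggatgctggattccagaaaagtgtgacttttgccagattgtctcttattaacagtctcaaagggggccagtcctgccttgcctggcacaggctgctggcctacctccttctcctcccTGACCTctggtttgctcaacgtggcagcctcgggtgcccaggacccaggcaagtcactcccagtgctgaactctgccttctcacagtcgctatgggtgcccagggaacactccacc
Itpr1_331344: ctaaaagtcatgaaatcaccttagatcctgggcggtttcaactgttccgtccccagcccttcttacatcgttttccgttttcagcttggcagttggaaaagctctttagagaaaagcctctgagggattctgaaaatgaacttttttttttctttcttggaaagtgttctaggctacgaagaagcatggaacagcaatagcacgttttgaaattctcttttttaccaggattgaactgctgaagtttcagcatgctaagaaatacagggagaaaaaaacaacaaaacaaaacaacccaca
Itpr2_28730: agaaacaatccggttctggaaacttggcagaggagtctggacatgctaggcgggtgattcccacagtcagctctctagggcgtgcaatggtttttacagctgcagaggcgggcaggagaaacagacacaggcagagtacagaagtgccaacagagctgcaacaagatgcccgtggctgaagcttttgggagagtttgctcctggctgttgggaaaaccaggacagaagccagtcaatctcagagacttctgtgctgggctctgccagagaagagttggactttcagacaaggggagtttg
Itpr2_32094: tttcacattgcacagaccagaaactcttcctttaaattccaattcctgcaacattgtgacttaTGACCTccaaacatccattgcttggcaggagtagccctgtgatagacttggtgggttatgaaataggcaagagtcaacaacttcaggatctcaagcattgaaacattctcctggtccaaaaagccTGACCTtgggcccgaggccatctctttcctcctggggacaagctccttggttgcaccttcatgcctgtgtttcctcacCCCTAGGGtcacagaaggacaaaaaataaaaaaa
Itpr2_187981: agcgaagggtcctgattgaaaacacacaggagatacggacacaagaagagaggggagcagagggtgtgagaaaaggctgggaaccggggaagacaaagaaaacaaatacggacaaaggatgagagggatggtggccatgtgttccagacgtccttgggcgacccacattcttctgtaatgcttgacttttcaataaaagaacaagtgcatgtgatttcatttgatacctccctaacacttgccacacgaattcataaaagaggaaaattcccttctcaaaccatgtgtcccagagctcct

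AGGTCA matched at 2 places in Itpr1_321602 and at 2 in Itpr2_32094, and the AP-1 motif matched in Itpr1_21640. Over all 210 peaks of these genes, both strands searched, 47 (22.4%) held AGGTCA, against 21.0% of 189596 peaks of the series in windows of 300 bases. The AP-1 motif was in 11.4% against 12.3%, and the EBF core in 12.4% against 11.2%. The longer ESRR motif TCAAGGTCA, which contains AGGTCA, was in 0 of the 210 peaks against 0.633% of all peaks, and the cAMP response element TGACGTCA was in 0 against 0.478%. A match describes the letters of the window and says nothing about binding.

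The first question was in which cell types these loci are open. *Atp2a2* and the channels *Itpr1* and *Itpr2* had their highest mean level in beige adipocytes, *Atp2a3* and *Ryr2* in B cells, *Itpr3* in CD8 T cells, *Ryr3* in T cells outside CD4 and CD8, and *Atp2a1* in the cluster annotated as VSMC. Since the authors drew the clusters from the same matrix, these levels are a description and were not tested.

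**Figure D1:**
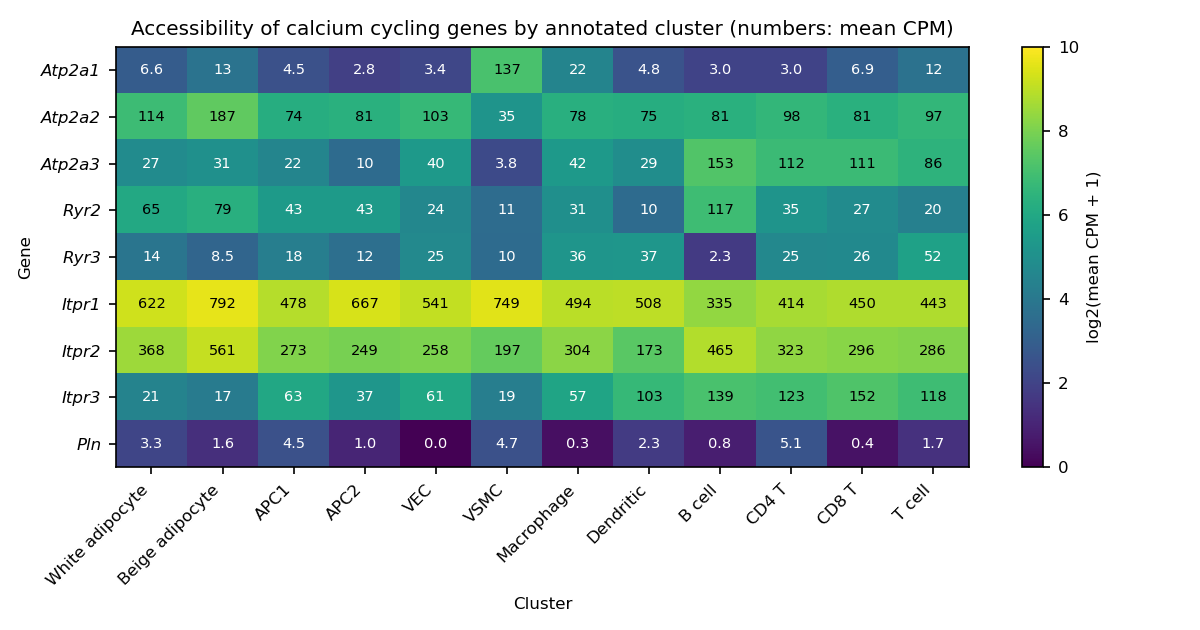
Mean accessibility of 9 calcium cycling genes (rows) in the 12 annotated clusters (columns); the colour is log2(mean CPM + 1) and the number in each field is the mean CPM over mice. *Atp2a2* is highest in beige adipocytes (187 CPM), *Atp2a1* in the cluster annotated as VSMC (137 CPM) and *Atp2a3* in B cells (153 CPM).

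Among the pumps, *Atp2a1* stood at 137 ± 68.6 CPM (SD, n = 10 mice) in the cluster annotated as VSMC, with a range over mice of 42.57 to 236.4. Macrophages followed with 22.0 ± 22.1 CPM (n = 21), and the SD ranges of these neighbours did not overlap. *Atp2a2* was open in every cluster, from 187 ± 37.0 CPM in beige adipocytes (n = 19) through 113.5 ± 20.9 in white adipocytes (n = 21) and 103 ± 72.4 in vascular endothelial cells (n = 15) to 35.0 ± 27.3 in the cluster annotated as VSMC. Beige and white were set apart by more than their SDs, and the 9 clusters from vascular endothelial cells to APC1 ran from 103 to 73.7 CPM with overlapping SDs. *Atp2a3* was highest in lymphocytes, with 153 ± 19.8 CPM in B cells, 112 ± 65.4 in CD4 T cells, 111 ± 29.3 in CD8 T cells and 86.5 ± 37.7 in the remaining T cells. It stood at 41.9 CPM or below in every other cluster.

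Among the release channels, *Ryr2* stood at 117 ± 35.5 CPM in B cells, 78.7 ± 27.8 in beige and 64.7 ± 27.7 in white adipocytes, and at 42.7 or below elsewhere. *Ryr3* led in the T cell cluster outside CD4 and CD8 with 51.5 ± 16.6 CPM, followed by dendritic cells (37.4 ± 32.7) and macrophages (35.7 ± 32.2), and was lowest in B cells (2.29 ± 2.13). *Itpr1* ranged from 792 ± 135 CPM in beige adipocytes, 749 ± 101 in the cluster annotated as VSMC, 667 ± 91.5 in APC2 and 622 ± 104 in white adipocytes to 335 ± 43.6 in B cells, and each neighbour in that order overlapped within the SD. *Itpr2* stood at 561 ± 77.8 CPM in beige adipocytes, 465 ± 42.5 in B cells and 367.5 ± 50.9 in white adipocytes, and was lowest in dendritic cells (173 ± 59.7). *Itpr3* was highest in lymphocytes, with 152 ± 34.2 CPM in CD8 T cells and 139 ± 22.8 in B cells, and was lowest in beige adipocytes (17.0 ± 9.69). The 3 inositol trisphosphate receptor genes therefore did not share an order of clusters.

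*Pln* reached at most 5.13 CPM (CD4 T cells, SD 21.3) and was at 0 in vascular endothelial cells. With 116 counts over all nuclei, its order of clusters cannot be read. Per kilobase of peak, which takes account of the width of the peaks, beige adipocytes had 31.1 CPM at *Atp2a2*, 17.5 at *Itpr1*, 17.0 at *Itpr2* and 8.31 at *Ryr2*. These values mix promoter and intronic peaks, whose shares differ between the genes. Counting promoter peaks alone, the highest cluster changed for *Itpr1* (to CD4 T cells), *Itpr2* (to B cells) and *Atp2a3* (to CD8 T cells), 3 of the 7 genes with a promoter peak. At *Atp2a2*, scaled to the total of promoter peaks, beige adipocytes (151 ± 43.6 CPM) and CD4 T cells (149.8 ± 61.4) were nearly level. On the CPM scale of the other values, its promoter peak was highest in CD4 T cells (85.3 CPM), with 62.1 in beige, so the beige lead did not hold there.

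The genes whose levels over the 12 clusters were most like those of these calcium cycling genes were, by Pearson's r on log2(mean CPM + 1), *Klhl41* for *Atp2a1* (0.928), *Gm45213* for *Atp2a2* (0.924), *Zfp7* for *Atp2a3* (0.964), *Mroh5* for *Ryr2* (0.9), *Slc9a9* for *Ryr3* (0.894), *Rbm7* for *Itpr3* (0.993) and *C2cd4c* for *Pln* (0.893). The best match of *Itpr2* was another gene of the set, *Ryr2* (0.888), and *Itpr2* ranked second for *Ryr2*. The 12 points share mice and libraries, so these values are descriptions. That of *Pln* rests on the order of clusters that, as said above, cannot be read.

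The second question was whether beige and white adipocytes of the same mice differ at these loci. *Atp2a2*, *Itpr2*, *Ryr2* and *Itpr1* were all more open in beige adipocytes, by 1.53, 1.51, 1.36 and 1.23-fold. That is 4 of the 6 genes that passed the filter on low counts. Over all genes tested, 13.6% were higher in beige (1736 of 12770). *Atp2a3* and *Itpr3* did not pass the threshold, and *Atp2a1*, *Ryr3* and *Pln* had too few counts to be tested. The clusters were drawn from the same matrix, so this test is not independent of the clustering. Adjusted p-values are from edgeR's quasi-likelihood test with Benjamini-Hochberg adjustment over all genes tested.

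In the 19 mice with at least 10 beige nuclei, *Atp2a2* ranged from 128 to 287 CPM in beige (median 186.6, 187 ± 37.0) and from 80.4 to 149.8 in white adipocytes of the same mice (median 119.1, 118 ± 15.5). The beige value was the higher in 19 of 19 mice, although the 2 ranges overlapped. The log2 fold change was 0.61 (SE 0.0764, adjusted p = 2.81e-11). *Itpr2* ranged from 384 to 706 CPM in beige (561 ± 77.8) and from 314 to 458 in white (373 ± 34.5), again higher in beige in 19 of 19 mice, with a log2 fold change of 0.59 (SE 0.0554, adjusted p = 4e-17). *Itpr1* ranged from 497 to 1065 CPM in beige (792 ± 135) and from 447 to 784 in white (634 ± 101), with a smaller log2 fold change of 0.29 (SE 0.0514, adjusted p = 1.19e-06) but also higher in 19 of 19 mice. *Ryr2*, the cardiac-type ryanodine receptor, stood at 78.7 ± 27.8 CPM in beige and 59.3 ± 12.4 in white, was higher in beige in 14 of 19 mice, and had a log2 fold change of 0.44 (SE 0.107, adjusted p = 0.000501). Most of this *Ryr2* difference lay in a single intronic peak, Ryr2_34905, with 29.7 CPM in beige and 12.8 in white.

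**Figure D2:**
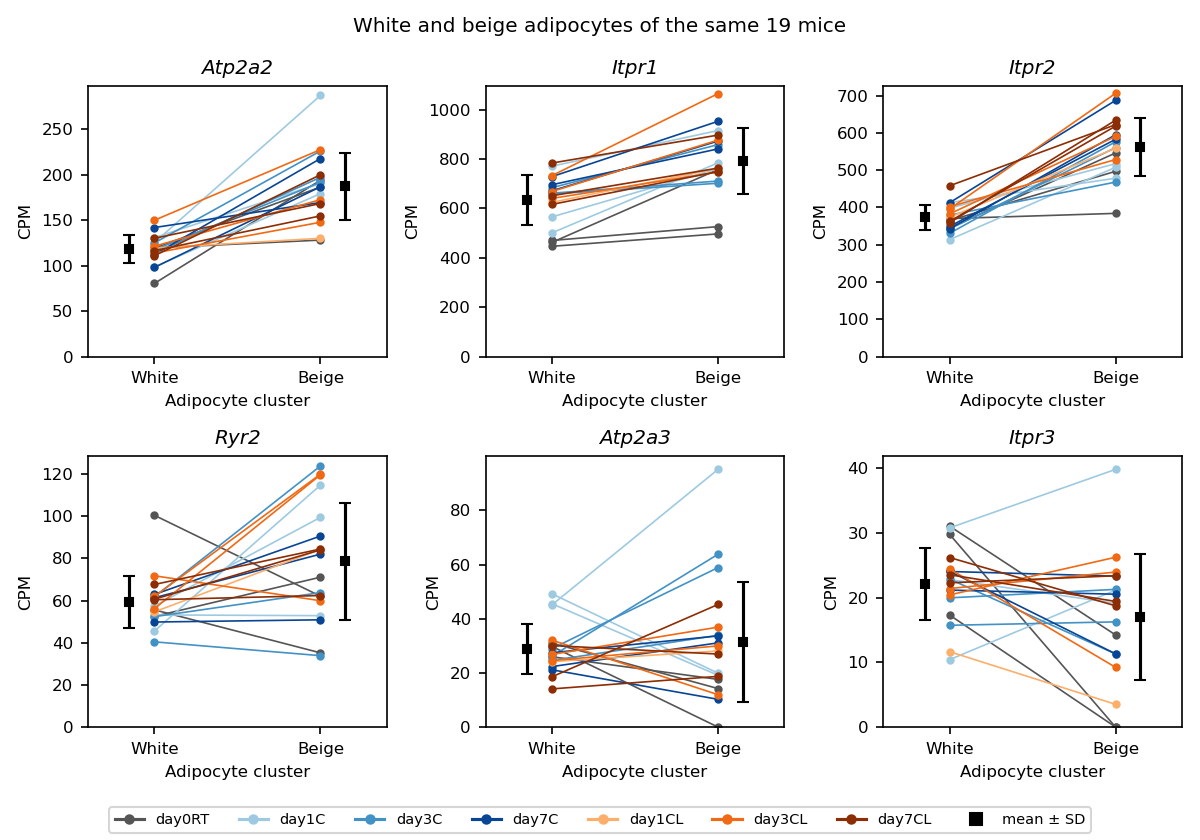
Accessibility (CPM) of 6 genes in the white and the beige adipocytes of the same mouse, joined by a line and coloured by group; black squares are means with SD over 19 mice. For *Atp2a2*, *Itpr1* and *Itpr2* every line rises from white to beige, while *Atp2a3* and *Itpr3* lines cross.

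*Atp2a3* had 31.4 ± 22.2 CPM in beige and 28.8 ± 9.07 in white and was higher in beige in 11 of 19 mice, with a log2 fold change of 0.35 (SE 0.152, adjusted p = 0.0719). It passed the threshold when day1C replicate 3, day7CL replicate 1 or the day0RT group was left out, or when 30 nuclei were required. Without the day3C group its log2 fold change was 0.12 (adjusted p = 0.708), and without day3C replicate 1 alone it was 0.18 (adjusted p = 0.484). *Itpr3* had a log2 fold change of -0.22 (SE 0.197, adjusted p = 0.454) and was higher in beige in 7 of 19 mice. *Ryr3* had 8.47 ± 10.8 CPM in beige and 15.0 ± 4.29 in white, with beige higher in 3 of 19 mice, and without the filter on low counts its log2 fold change was -0.74 (adjusted p = 0.0215), and with at least 30 nuclei it also passed (adjusted p = 0.0392). *Atp2a1* stood at 13.1 and 6.61 CPM and *Pln* at 1.56 and 3.30 CPM in beige and white.

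Promoter and other peaks were also summed apart, in the 21 mice with white and the 19 with beige nuclei. At *Atp2a2*, the 10 peaks away from the promoter summed to 125 ± 40.5 CPM in beige and 68.3 ± 14.6 in white, while the promoter peak had 62.1 ± 20.5 and 45.2 ± 15.9 CPM. At *Itpr1*, the 87 other peaks had 738 ± 129 and 573 ± 106 CPM and the promoter 53.3 ± 23.8 and 49.6 ± 11.0. At *Itpr2*, the promoter had 41.3 ± 22.3 CPM in beige and 26.5 ± 8.55 in white, and the 63 other peaks had 520 ± 75.4 and 341 ± 51.8. At *Ryr2*, the promoter had 7.16 ± 8.31 and 5.80 ± 5.99 CPM and the 17 other peaks 71.6 ± 29.8 and 58.9 ± 22.3. The ratio of beige to white was thus smaller at the promoter than elsewhere for *Atp2a2* and *Itpr1*, but not for *Itpr2* and *Ryr2*. With promoter peaks alone, *Itpr2* remained above the threshold (log2 fold change 0.65, adjusted p = 0.000262), and *Atp2a2* (0.23, adjusted p = 0.23) and *Itpr1* (0.10, adjusted p = 0.712) did not pass it.

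Peak by peak, 35 peaks of 4 genes passed the filter, and 18 were higher and 1 lower in beige. Over all 24854 peaks tested, 12.8% were higher and 14.4% lower. *Itpr1* had 9 higher and 1 lower of 18 tested, *Itpr2* 6 higher of 13, *Atp2a2* 2 higher of 3 and *Ryr2* 1 higher of 1. The main filter asked for its minimum count in only a few libraries, so a peak could enter the test through beige libraries in which it was high. The split of these calls by direction is therefore a description only. The 19 called peaks held only 4.92 to 15.5 counts per library on average. With a stricter filter, set by the size of the clusters and added after the data were seen, 2 peaks were called.

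The element Ryr2_34905, in an intron, had 29.7 ± 20.7 CPM in beige and 12.8 ± 4.58 in white and was higher in beige in 16 of 19 mice, with a log2 fold change of 1.14 (SE 0.188, adjusted p = 6.27e-08). Itpr1_21640 had 21.8 ± 14.3 against 7.98 ± 2.45 CPM, with a log2 fold change of 1.09 (SE 0.248, adjusted p = 0.000147). Itpr2_28730 had 22.7 ± 17.2 against 9.77 ± 5.26 CPM, with a log2 fold change of 1.06 (SE 0.221, adjusted p = 2.69e-05). These 3 intronic elements had the largest increases among the tested peaks, which a high beige level could help to enter the test.

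Itpr1_321602, with 2 AGGTCA matches, had a log2 fold change of 0.87 (adjusted p = 4.79e-05), and Itpr2_32094, also with 2, had 0.77 (adjusted p = 2.29e-05). Atp2a2_26942 had 0.72 (adjusted p = 0.00506), whereas the *Atp2a2* promoter peak, Atp2a2_260, had 0.17 and did not pass the threshold. The only promoter peak that passed was that of *Itpr2*, Itpr2_238, at 0.59 (adjusted p = 0.000453). Itpr1_331344, near the 3′ end of the gene, went the other way, with 6.79 ± 9.88 CPM in beige and 15.0 ± 8.54 in white, lower in beige in 14 of 19 mice (log2 fold change -1.18, SE 0.287, adjusted p = 0.000418). *Itpr1* therefore held called elements of both directions. At *Ryr2*, the intronic peak Ryr2_104650 had too few counts to be tested. Over all mice of each cluster it stood at 2.91 ± 4.06 CPM in beige and 11.9 ± 7.78 in white (13 and 221 counts), against the direction of its gene.

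**Figure D3:**
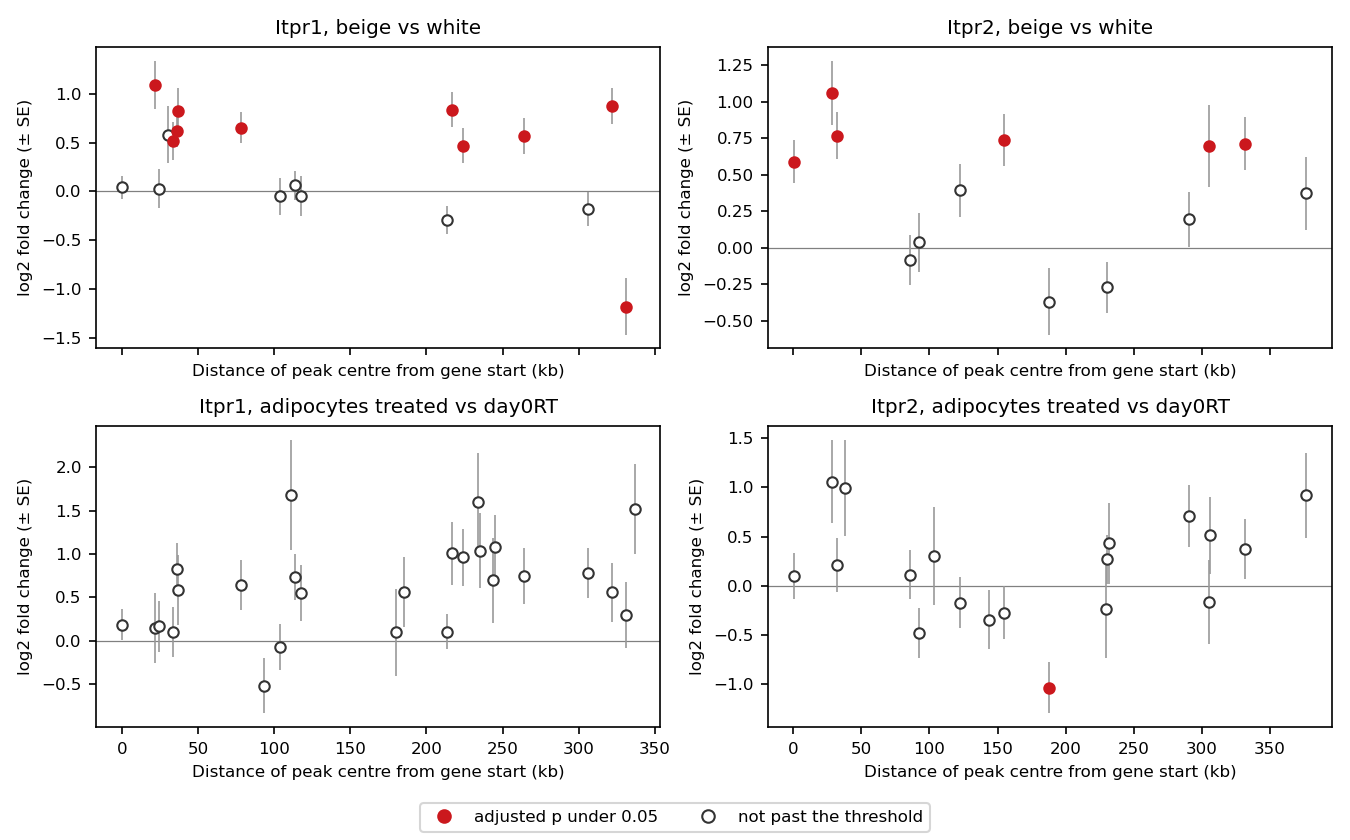
Log2 fold change of each tested peak of *Itpr1* (left) and *Itpr2* (right) against the distance of its centre from the gene start in kilobases, for beige against white (top) and treated against day0RT adipocytes (bottom); bars are SE and filled points have an adjusted p under 0.05. In beige against white 16 filled points are seen, and in treated against day0RT 1.

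The third question was whether these loci change in adipocytes with cold or CL. For it, white and beige nuclei were summed together per mouse, and 8 of the 10 genes could be tested. *Itpr1*, the type 1 inositol trisphosphate receptor, was the only one of the 8 to pass the threshold. It was called higher in 5 of the 6 treated groups, by up to 0.69 on the log2 scale. The group not called, day1C, had an estimate of 0.42, close to the 0.41 of day1CL, which was called. All comparisons share the 3 day0RT mice.

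*Itpr1* stood at 478.4, 449.5 and 481.8 CPM in the 3 day0RT mice. It stood at 585.1, 537.9 and 784.6 CPM after 1 day of cold, at 669.0, 707.6 and 663.2 after 3 days, and at 813.6, 738.5 and 733.3 after 7 days. After CL it stood at 675.3, 578.5 and 652.6 CPM at day 1, 793.7, 687.7 and 647.1 at day 3 and 805.1, 669.4 and 648.8 at day 7. Each of the 18 treated mice lay above each of the 3 day0RT mice, and no group overlapped day0RT. The share of all genes with such a separation is not given here. Single groups were also free of overlap with day0RT at *Atp2a2* (day3C, day7C, day7CL) and *Itpr2* (day7C, day3CL, day7CL). The same held at *Ryr3* (day3C, day7C), *Atp2a1* (day3C, day7CL) and *Atp2a3* (day1C). The day0RT mice held only 5, 3 and 8 counts at *Ryr3* and 1, 2 and 4 at *Atp2a1*. For these groups too the share of all genes so separated is not given, so the lack of overlap is a description only.

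After 3 days of cold the log2 fold change against day0RT was 0.52 (SE 0.103, adjusted p = 0.00219), where 0.894% of all 14429 genes tested were higher. After 7 days of cold it was 0.69 (SE 0.104, adjusted p = 3.6e-06; 2.97% of genes higher). After CL it was 0.41 at day 1 (SE 0.119, adjusted p = 0.0402; 1.15% higher), 0.58 at day 3 (SE 0.103, adjusted p = 8.6e-05; 3.08% higher) and 0.61 at day 7 (SE 0.103, adjusted p = 2.69e-05; 4.64% higher). After 1 day of cold it was 0.42 (SE 0.108, adjusted p = 0.0505) and missed the threshold, with 0.104% of genes higher. Of the 8 genes, 2 were at an unadjusted p under 0.05 there, against 1439 of all 14429 genes. Without day1C replicate 3, the highest of the 3 mice, the *Itpr1* estimate was 0.26 (adjusted p = 0.473). DESeq2 called *Itpr1* there (adjusted p = 0.0428) and not at day1CL (adjusted p = 0.0628), so the calls at day 1 depend on the tool. The day1CL call was also lost without day1CL replicate 3 (0.31, adjusted p = 0.663), without day7C replicate 2 or without any 1 of the day0RT mice.

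**Figure D4:**
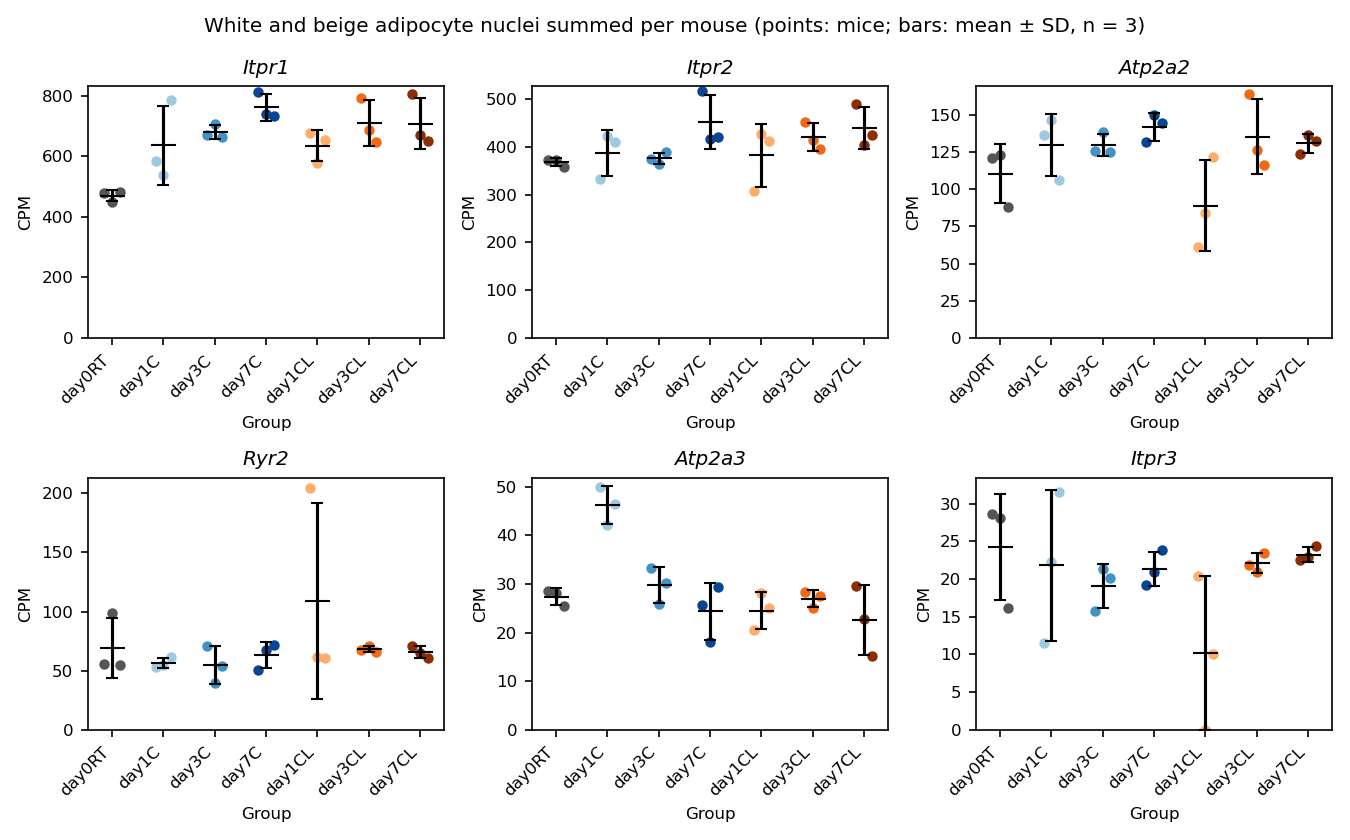
Accessibility (CPM) of 6 genes in adipocytes, white and beige nuclei summed, by group; points are mice and bars the mean with SD (n = 3 mice). The 18 treated mice sit between 537.9 and 813.6 CPM at *Itpr1*, all above the day0RT mice (449.5 to 481.8); day1CL replicate 1 at *Ryr2* (204.6 CPM) rests on 29 nuclei.

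Over the 6 treated groups together, the *Itpr1* log2 fold change was 0.54 (SE 0.0859, adjusted p = 1.18e-05), where 2.08% of genes were higher. Beige nuclei, which have the higher *Itpr1* level, made up 9.22% ± 2.62 (SD, n = 3) of adipocyte nuclei at day0RT, 29.4% ± 3.20 at day7C and 20.0% ± 4.85 at day7CL. In white adipocyte nuclei alone the log2 fold change was 0.54 at day3C, 0.60 at day7C, 0.56 at day3CL and 0.60 at day7CL (adjusted p = 0.0032, 5e-04, 0.000287 and 1e-04), and 0.51 over the treated groups (adjusted p = 9.67e-05). The day1CL call was lost there (0.36, adjusted p = 0.131). In the beige nuclei alone, *Itpr1* stood at 526.4, 496.9 and 757.5 CPM at day0RT and at 952.9, 841.2 and 872.8 CPM at day7C. Over the 16 treated mice with at least 10 beige nuclei it ranged from 702.0 to 1065 CPM, with a median of 812.8. Of these, 12 lay above all day0RT mice and 4, in day3C, day3CL and day7CL, lay below the highest one, so the ranges overlapped. Treatment was not tested in beige nuclei alone.

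Depth moved with the groups: the median number of entries per adipocyte nucleus was 1941 at day0RT, 1723 at day1C, 1496 at day1CL and between 2626 and 3546 in the other 4 groups. With only nuclei of at least 2000 entries, *Itpr1* had a log2 fold change of 0.54 over the treated groups (adjusted p = 3.21e-05). A floor on entries does not by itself make depth equal between groups, and the part of depth in the result was not tested. The summed level of 8 B cell genes in adipocyte nuclei was 1117 to 1366 CPM at day0RT and 1011 to 1237 CPM in the treated mice. Most of this sum was *Ebf1*, with means of 1023 CPM in white and 925 CPM in beige adipocytes, where the 8 genes summed to 1157 and 1050. *Cd79a* had 7.98 and 5.83 CPM there and *Ms4a1* 4.11 and 2.38, so the sum is not a measure of B cell signal. *Itpr1* was lowest in B cells, and the part of B cell signal in the result was not tested. The summed level of 7 beige marker genes was 238.8 to 321.0 CPM at day0RT and 431.0 to 528.1 CPM at day7C.

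The *Itpr1* promoter peak had 43.6 ± 10.1 CPM at day0RT, means of 44.2 to 52.6 CPM in 5 of the 6 treated groups, and 71.9 ± 44.1 at day1CL, where day1CL replicate 1 (29 nuclei) stood at 122.8. The other 87 peaks had 426 ± 17.2 CPM at day0RT, 564 ± 36.9 at day1CL and means of 584 to 714 CPM in the remaining treated groups. With promoter peaks alone no comparison of *Itpr1* passed the threshold (0.27 over the treated groups, adjusted p = 0.596). No single *Itpr1* peak passed it either: of 26 tested with edgeR, 24 had a log2 fold change above 0, with a median of 0.61 and a range of -0.52 to 1.68, 12 had an unadjusted p under 0.05, and DESeq2 also called 0. Over all 47835 peaks tested, 1.11% were higher and 1.51% lower after treatment at the adjusted threshold. The share of all peaks at an unadjusted p under 0.05 is not given here.

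*Atp2a2* stood at 120.6, 122.9 and 87.81 CPM at day0RT, at 131.5, 149.8 and 144.4 at day7C and at 123.5, 136.2 and 132.5 at day7CL. The last 2 groups lay above all day0RT mice, and 13 of 18 treated mice did, though the share of all genes with as many is not given. The log2 fold changes of 0.43 at day7C (SE 0.15, adjusted p = 0.0751) and 0.31 at day7CL (SE 0.147, adjusted p = 0.196) did not pass the threshold. *Itpr2* stood at 372.1, 372.3 and 358.2 CPM at day0RT, at 516.4, 416.4 and 420.6 at day7C and at 488.6, 403.3 and 424.9 at day7CL, with log2 fold changes of 0.30 (SE 0.108, adjusted p = 0.0858) and 0.29 (SE 0.106, adjusted p = 0.0761). Its day7CL difference passed the threshold when day7CL replicate 2 was left out (0.35, adjusted p = 0.0476).

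**Figure D5:**
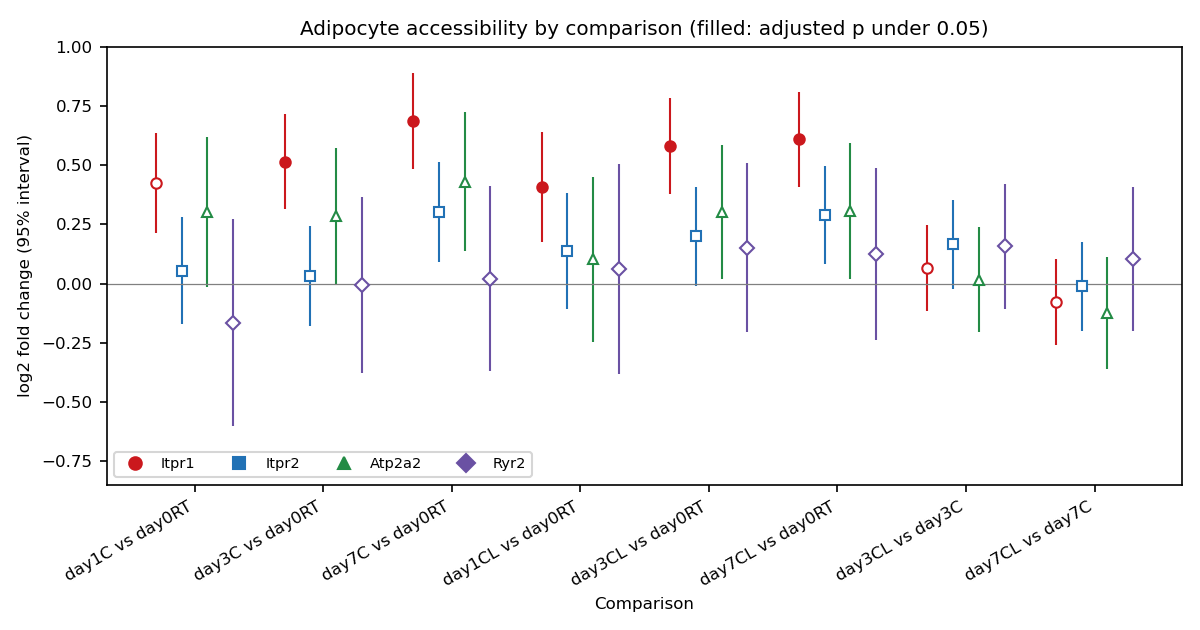
Log2 fold change with 95% interval of *Itpr1*, *Itpr2*, *Atp2a2* and *Ryr2* in adipocytes for each treated group against day0RT and for CL against cold at days 3 and 7; filled symbols have an adjusted p under 0.05. The filled symbols are *Itpr1* in 5 groups (0.41 to 0.69); the intervals for CL against cold include 0.

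*Ryr2* had a log2 fold change of 0.03 over the treated groups (SE 0.166, 95% interval -0.29 to 0.36). Its values were 55.2, 98.34 and 54.3 CPM at day0RT, and 17 of the 18 treated mice lay between 39.57 and 71.43; the remaining one, day1CL replicate 1 at 204.6 CPM, had 29 nuclei. *Atp2a3* stood at 46.2 ± 3.97 CPM at day1C against 27.4 ± 1.72 at day0RT, without overlap, but its log2 fold change of 0.81 (SE 0.251) had an adjusted p of 0.153. *Itpr3* had 10.2 ± 10.2 CPM at day1CL against 24.3 ± 7.04 (log2 fold change -1.26, SE 0.434, adjusted p = 0.1). *Atp2a1* ranged from 0 to 14.9 CPM, *Ryr3* from 0 to 27.4 and *Pln* from 0 to 6.26 over the treated mice. Over the treated groups *Atp2a1* had a log2 fold change of 0.80 (SE 0.556, adjusted p = 0.476) and *Ryr3* of 0.50 (SE 0.372, adjusted p = 0.514), and *Pln* was not tested.

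The single elements that passed the threshold in treated against day0RT adipocytes were Itpr2_187981 and Atp2a2_46644. The first went against the estimate of its gene (0.17, adjusted p = 0.3), and the second went the same way as its gene (0.29, adjusted p = 0.198). They were 1 of 19 peaks tested at *Itpr2* and 1 of 5 at *Atp2a2*. At *Itpr1*, *Ryr2* and *Atp2a3*, 0 of 26, 0 of 3 and 0 of 2 passed. Over all 47835 peaks tested, 1.11% were higher and 1.51% lower. So few calls are near those shares and are given as a description of single elements. Itpr2_187981 stood at 24.5, 38.6 and 27.7 CPM in the day0RT mice and at a median of 13.5 CPM (0 to 28.5) in the 18 treated mice, with a log2 fold change of -1.04 (SE 0.259, adjusted p = 0.00868). Its ranges overlapped through day3CL replicate 3 alone, at 28.5 CPM. Atp2a2_46644, near the 3′ end of *Atp2a2*, held 3 counts in day0RT and 208 in treated adipocytes, a ratio of rates of 5.40 (95% exact interval 1.82 to 26.4, counting error only), with an adjusted p of 0.038. DESeq2 called neither.

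The fourth question was whether CL and cold differ at the same day. No calcium cycling gene passed the threshold at day 3 or at day 7 (0 of 8 with edgeR and 0 with DESeq2 on each day). Of all genes, 1.46% passed it at day 3 and 0.111% at day 7. None of the 8 was at an unadjusted p under 0.05 on either day, against 1741 of all 14429 genes at day 3 and 1231 at day 7. The *Itpr1* difference, CL minus cold, was 0.07 at day 3 (95% interval -0.11 to 0.25) and -0.08 at day 7 (-0.26 to 0.10). For *Atp2a2* it was 0.02 (-0.21 to 0.24) and -0.12 (-0.36 to 0.11), and for *Itpr2* 0.17 (-0.02 to 0.35) and -0.01 (-0.20 to 0.18).

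Outside adipocytes, 8 clusters had enough mice for treated against day0RT, and no calcium cycling gene passed the threshold in any of them with edgeR or DESeq2. B cells, the deepest, had 6 genes tested and 3 at an unadjusted p under 0.05: *Itpr1* (log2 fold change 0.27, SE 0.0775, adjusted p = 0.0647), *Ryr2* (0.30, adjusted p = 0.197) and *Itpr3* (-0.25, adjusted p = 0.194). Of all genes in B cells, 1471 of 11502 were at that level and 0.739% passed the threshold. *Itpr1* passed there without day7C replicate 3 (adjusted p = 0.0495). CD4 T cells had 2 of 6 at an unadjusted p under 0.05, *Itpr1* (0.23) and *Atp2a2* (-0.41). Over all genes there, 842 of 9617 were at that level and 0.0416% passed the threshold. Dendritic cells had 1 of 1, *Itpr1* (0.29, SE 0.141, adjusted p = 0.533), against 75 of 858 genes at that level and 0.117% past the threshold. CD8 T cells (7 tested, 0.0578% of genes past the threshold), the other T cells (5 tested, 0.0172%), APC1 (2 tested, 0.0688%), APC2 (2 tested, 0.0%) and macrophages (2 tested, 0.0%) had 0 at an unadjusted p under 0.05. Vascular endothelial cells and the cluster annotated as VSMC could not be fitted, having 1 and 0 day0RT mice with 10 nuclei.

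Other calcium handling genes were described from a list of 85, of which 82 had a peak. In beige against white adipocytes, 15 of 71 tested were higher and 13 lower, with a median log2 fold change of 0.08 against 0.01 over all genes, of which 13.6% were higher and 15.2% lower. The higher ones included *Camk2b*, a subunit of calmodulin-dependent kinase (0.82), *Srl*, encoding the reticulum protein sarcalumenin (0.57), and *Tpcn2*, a lysosomal channel (0.53). The lower ones included *Atp2b4*, a calcium pump of the plasma membrane (-0.82), *Camk2a* (-0.56) and *Mcub*, a subunit of the mitochondrial calcium uniporter (-0.43).

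In adipocytes against day0RT, 79 were tested. After 7 days of cold 3 rose and 0 fell, where 2.97% of all genes were higher and 2.11% lower. After 7 days of CL 5 rose and 2 fell, where 4.64% of all genes were higher and 3.17% lower. *Cacnb2*, a subunit of voltage-gated calcium channels, and *Ppp3ca*, the catalytic subunit of calcineurin, rose in both (0.79 and 0.46 after cold, 0.80 and 0.59 after CL). *S100a1*, a calcium-binding protein that acts on SERCA and ryanodine receptors in muscle, fell at day3C (-0.67), day3CL (-0.54) and day7CL (-0.54). *Tmem38a*, a potassium channel subunit of the reticulum, fell at day3CL (-0.52). At day3C 0 rose and 1 fell (0.894% and 0.783% of all genes), and at day3CL 1 rose and 2 fell (3.08% and 1.69%). With edgeR 0 genes of the list passed at day1C (7 at an unadjusted p under 0.05) and 0 at day1CL (9 at an unadjusted p under 0.05); DESeq2 was not run on the list. Over all 14429 genes, 1439 were at an unadjusted p under 0.05 at day1C and 2189 at day1CL. Past the threshold, 0.104% were higher and 0.236% lower at day1C, and 1.15% higher and 1.46% lower at day1CL. Over the treated groups 1 rose and 1 fell (2.08% and 2.09% of all genes), with a median of 0.06 against -0.01 over all genes. Between CL and cold, *Asph*, a reticulum membrane protein gene, was higher with CL at day 3 (0.42), and 0 of the list passed at day 7. At an unadjusted p under 0.05 were 5 of the list at day 7, against 1231 of all 14429 genes.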

How the data were processed

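Nuclei of iWAT were profiled by snATAC-seq in 4 lanes. Per the methods and labels, the authors aligned reads to mm10 with Bowtie2, removed duplicates per barcode and mitochondrial reads, called peaks with MACS2, clustered nuclei with Signac and removed doublets; their versions are not repeated here. They deposited a peak by nucleus matrix whose counts are binary (65588856 entries of 1, none larger), so 1 read and several cannot be told apart and widely open peaks are flattened. Other deposited columns name the mouse, group and cluster.

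Here entries were summed per gene (GENCODE vM21 body plus 2000 bases upstream), mouse and cluster, with at least 10 nuclei. Genes and peaks were tested with edgeR 4.0.16 in R 4.3.3 (quasi-likelihood, TMM, filterByExpr with the design of the fit, minimum count 10, total 15, proportion 0.7), two-sided, with Benjamini-Hochberg adjustment over all features of a comparison and a threshold of 0.05. Intervals are 1.96 SE either side. All 7 groups shared 1 fit; beige against white had group and cluster as terms. Replicates are the mice of the annotation. Beige and white sums come from the same mice, and a fit with the mouse as a block was an alternative, as were DESeq2 1.42.0, no filter, promoter peaks, peaks of 1 gene only, white or deep nuclei, other minimum nuclei, only the 2 groups compared, the replicate number as a block, and leaving out each mouse or group. The cluster-size filter was added after the data were seen. The gene tests of beige against white and of treated against day0RT were run on simulated data. The changes planted there were larger than those called at the 10 genes. Recovery of smaller changes, single groups, other clusters and single peaks was not simulated. The genes, lists and naming rule (the 10 genes, up to 3 peaks or list genes in each direction, the 3 genes most alike, of which the first is printed; that of *Itpr1* is not reported here) were chosen with earlier results of these data known. Python 3.11.15 counted motifs.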

Additional observations from a re-analysis of the deposited data

Results flagged for a closer look

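In the cluster annotated as VSMC, with 10 mice, a single mouse stood far from the others at each of 2 channel genes. At *Ryr2*, day3CL replicate 1 had 42.57 CPM, which is 1 count of 23488 from 16 nuclei, and no mouse had more than 1 count there. At *Itpr3*, day3C replicate 3 had 92.59 CPM, which is 4 counts of 43200 from 14 nuclei, where the other mice had 0 to 3 counts. The counts are too few for either value to be read as a difference. Of 9 genes checked in this way, all in these same 10 mice, 2 were picked out. Chance picks out about 1 in 20 where values are continuous, which CPM from so few counts are not. The 9 checks also share their mice. In none of the 27 gene and day pairs checked did every cold mouse lie on one side of the day0RT mean and every CL mouse on the other, although the means of the 2 groups did so in 5 pairs, untested.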

How the results depend on the processing

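Alternatives other than leaving out single mice include those without a whole group. Of their counts of calls, 79 stayed within 1.5 times the reported count and 19 did not, and the cause was not tested. With promoter peaks only, the number of calcium cycling genes called was 1 in beige against white (4 with all peaks) and 0 in day3C, day7C, day1CL, day3CL, day7CL and treated against day0RT (1 with all peaks), and the highest cluster stayed the same for 4 of 7 genes. For day1C the count was 1 with DESeq2 and 1 with peaks of 1 gene only. For day1CL it was 0 with DESeq2, no filter, peaks of 1 gene only and white adipocyte nuclei only. Peaks called in beige against white were 40 without a filter and 2 with the cluster-size filter, against 19; in treated against day0RT they were 0 with DESeq2, 0 without a filter and 1 with the replicate number as a block, against 2.

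Leaving out each mouse in turn gave 4 to 5 genes in beige against white, 0 to 1 at day1C (1 without day1C replicate 2, day1CL replicate 1, day3C replicate 2 or 3, day3CL replicate 1 or 3, day7C replicate 1 or day7CL replicate 1 or 3), 0 to 1 at day1CL (0 without any day0RT mouse, day1CL replicate 3 or day7C replicate 2), 1 to 2 at day7CL (2 without day7CL replicate 2), 1 in the other comparisons with day0RT, 0 to 1 in other cell types (1 without day7C replicate 3), 13 to 30 peaks in beige against white (30 without day1CL replicate 3) and 0 to 3 peaks in treated adipocytes (0 without day0RT replicate 2 or 3; 1 without day1CL replicate 3, day3C replicate 3, day3CL replicate 2, day7C replicate 1 or 3 or day7CL replicate 1). The *Itpr1* difference between day3CL and day3C turned to -0.11 with promoter peaks only and ranged from -0.01 (-0.00748 without day3CL replicate 1) to 0.14 without single mice. That of *Atp2a2* over the treated groups turned to -0.04 (-0.0432) with promoter peaks only. That of *Ryr2* turned to -0.0361 with DESeq2, -0.0773 in white nuclei only, and ranged from -0.162 to 0.225 without single mice.

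With the mouse as a block, beige against white gave 4 genes and 26 peaks, and the same number of genes was called as without it. The labels do not say whether a replicate number marks mice handled together, and the numbers were not taken as pairs: 63 correlations of the deviations of same-numbered mice ran from -0.123 to 0.116, with a median of 0.0017. With the number as a block the counts of genes called were the same. The study describes 3 batches, but the labels and annotation do not place mice in them, so no value within a batch is given and a batch cannot be told apart from a group. The 4.92 to 15.5 counts per library of the called beige peaks limit what single elements can show.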
